A study of Mus musculus with 6 samples.

Results

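The 10 genes described here encode the Polycomb repressors and the enzymes that write and maintain DNA methylation: the PRC2 subunits *Ezh1*, *Ezh2*, *Eed*, *Suz12* and *Rbbp4*, the PRC1 subunits *Bmi1* and *Ring1*, the DNA methyltransferases *Dnmt1* and *Dnmt3a*, and *Uhrf1*. They were chosen by symbol as proteins known to restrain muscle genes in proliferating cells, and all 10 are among the 20654 genes of the count table. Of these, 9 were among the 8551 genes with enough counts to be tested, and *Ring1* was not. The study asked how the loss of PIEZO1, a mechanosensitive Ca2+-permeable channel, affects muscle satellite cells (MuSCs), which are the resident stem cells of muscle. RNA-seq covered 3 libraries labelled wild type and 3 labelled *Piezo1* cKO. Per the paper's description, *Piezo1* cKO mice were *Piezo1* flox/flox; *Pax7* CreERT2/+, so that Cre acts only in cells expressing *Pax7*, and the controls carried *Pax7* CreERT2/+ as well. Tamoxifen was injected on 5 consecutive days, MuSCs of C57BL/6 background were sorted as VCAM1+ Sca1- CD31- CD45- cells, and they were cultured for 3 days on Matrigel in growth medium that contained 4-OH TMX in both groups. The ages of the mice are not given in the sources used here, and nothing says which mouse gave which library.

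PRC2 methylates a lysine in the tail of histone H3, with EZH1 or EZH2 as the catalytic subunit and EED, SUZ12 and RBBP4 or its relative RBBP7 as the core around it. PRC1 binds this mark through its CBX subunits and attaches ubiquitin to histone H2A through RING1 or RNF2, together with a PCGF protein such as BMI1. DNMT1 copies DNA methylation to the daughter strand behind the replication fork, where UHRF1 brings it to hemimethylated CpG sites, whereas DNMT3A methylates sites anew. In proliferating myoblasts EZH2 is known to hold late muscle genes silent, and its amount declines as the cells leave the cycle and differentiate.

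The libraries held 740936, 931168 and 891531 counts in wild type and 810096, 726378 and 769295 in *Piezo1* cKO, with 14432 to 14786 genes detected in each. Levels are given as CPM, in which each library is brought to the same size by TMM scaling, and a count of 3, taken as the floor, was worth 3.26 to 4.20 CPM. The targeted gene was examined first. *Piezo1* had 11, 5 and 6 counts in wild type and 7, 12 and 9 in *Piezo1* cKO, that is 9.25 ± 5.38 against 11.9 ± 3.41 CPM (SD, n = 3). The groups overlapped, and the log2 fold change was 0.42 (95% interval -0.50 to 1.33, adjusted p = 0.791 in edgeR, kept past the filter on low counts). The label *Piezo1* cKO was thus not matched by fewer *Piezo1* counts. Whether the labels of the groups were exchanged was not tested, and an exchange would turn every direction below. All of them rest on the labels, with *Piezo1* cKO standing for the libraries so labelled. Counts over a whole gene do not separate transcripts lacking the deleted exons from intact ones.

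Libraries within a group were not alike in differentiation. Over 7 tested markers of differentiating myocytes, the mean deviation of log2 CPM from the 6-library average came to -0.13, -2.09 and -0.74 in wild type and 0.35, 1.89 and 0.72 in *Piezo1* cKO. *Actc1*, 1 of the 7, passed the filter on low counts through *Piezo1* cKO alone. These means thus rest in part on a gene whose sign was fixed. In each of the other 6 genes wild type library 2 also stood lowest and *Piezo1* cKO library 2 highest. *Myog*, which encodes the transcription factor myogenin that opens the differentiation programme, had 3 counts in the former and 203 in the latter. Named genes with fold changes in which these libraries held opposite ends, and the lists they belong to, are also given with both left out, a comparison of 2 against 2 added after the data were seen.

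Of the 8551 genes tested, 67 (0.784%) differed between the groups at an adjusted p under 0.05 in edgeR, 40 of them higher (0.468%) and 27 lower (0.316%) in *Piezo1* cKO. With total counts as the only scaling these were 45 and 18. The number of calls rested on single libraries, with 6 genes called without *Piezo1* cKO library 2, 29 without its library 3 and 155 without its library 1, and 105 and 130 without wild type libraries 1 and 3. None of the 9 tested Polycomb and methylation genes was among the 67, and none had an unadjusted p under 0.05 either. Of all genes tested 11.9% reached that level, 6.14% higher and 5.78% lower. By DESeq2, none of the 7 for which it gave an adjusted p was called. For all 10 genes the values of the groups overlapped, whereas the groups did not overlap for 16.5% of the genes tested. The log2 fold changes ran from -0.23 for *Dnmt1* to 0.18 for *Dnmt3a* with a median of -0.10, and 7 of the 9 were negative, beside a median of 0.00 with 49.8% negative and 50.2% positive over all genes tested. With both libraries numbered 2 left out, 5 of the 9 were negative and the median was -0.04. Leaving out 1 library gave medians from -0.17 (without wild type library 3) to -0.02 (without *Piezo1* cKO library 3). With total counts as the only scaling the median was -0.02. In the fit of all 6 libraries the data bound these differences as well: the 95% interval lay within a 1.5-fold change either way for 7 of the 9 genes, and within a 2-fold change for all 9. A test that did not reach the threshold does not show that the levels were the same.

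**Figure D1:**
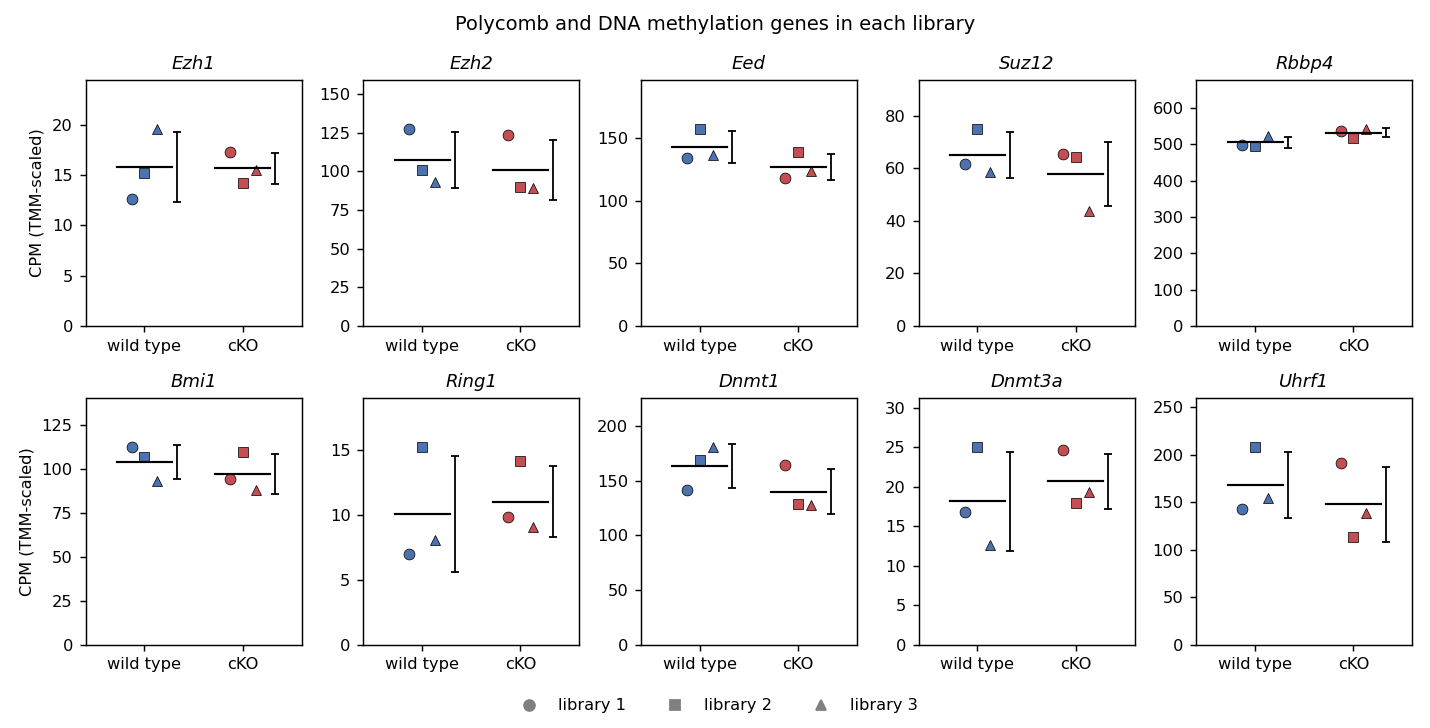
Level of each of the 10 genes in TMM-scaled CPM (vertical axes, each starting at 0) in 3 wild type (blue) and 3 *Piezo1* cKO (red) libraries, with the library number as the symbol, the group mean as a line and the SD as a bar. The points of the groups overlap in every panel, and *Uhrf1* spans 113 to 208 CPM within these 6 libraries.

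Among the catalytic subunits of PRC2, *Ezh2* (chr6:47530139-47595341, minus strand, build GRCm38 with GENCODE M21) stood at 127, 101 and 93.2 CPM in wild type and at 123, 90.1 and 89.1 CPM in *Piezo1* cKO. In each group library 1 was high and the other libraries were close to each other, so the spread within a group exceeded the difference between the means of 107 ± 17.9 and 101 ± 19.6 CPM (SD, n = 3). The log2 fold change was -0.08 (SE 0.17, 95% interval -0.41 to 0.26, adjusted p = 0.919 in edgeR), and the two-sided exact permutation test gave p = 0.5, where 3 libraries against 3 allow none under 0.1. *Ezh1* (chr11:101191115-101226463, minus strand), the catalytic subunit known to persist in resting and differentiated cells, gave only 9, 14 and 17 counts in wild type and 14, 11 and 12 in *Piezo1* cKO. Its log2 fold change of -0.03 had a 95% interval from -0.75 to 0.70, that is from 0.596-fold to 1.62-fold, so at this depth only larger differences would have stood out. The number of *Ezh2* counts per *Ezh1* count, chosen for a look after the values were seen, was 10.1, 6.64 and 4.76 in wild type and 7.14, 6.36 and 5.75 in *Piezo1* cKO. These ratios overlapped (two-sided exact permutation test, p = 0.8, adjusted p = 0.9 over 6 such ratios), and they are ratios of counts, not of transcript numbers corrected for length.

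*Eed* (chr7:89954654-89980983, minus strand), which binds the methyl mark and stimulates the enzyme, had 134, 158 and 137 CPM in wild type and 119, 139 and 124 CPM in *Piezo1* cKO. *Piezo1* cKO library 2 lay above 2 of the wild type libraries, and the means of 143 ± 12.7 and 127 ± 10.6 CPM (SD, n = 3) were closer than the spread allows to separate (log2 fold change -0.17, SE 0.15, adjusted p = 0.709 in edgeR). *Suz12* (chr11:79993106-80034123, plus strand), the scaffold of the complex, had 61.6, 75.0 and 58.7 CPM in wild type and 65.5, 64.3 and 43.9 CPM in *Piezo1* cKO. *Piezo1* cKO library 3 alone lay below all wild type values, and the log2 fold change was -0.17 (SE 0.21, adjusted p = 0.818 in edgeR).

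*Rbbp4* (chr4:129307100-129335370, minus strand) encodes a histone chaperone shared with other chromatin complexes. Its 499, 496 and 522 CPM in wild type and 536, 517 and 542 CPM in *Piezo1* cKO gave it the smallest spread of the 10 genes, with a ratio of 1.09 between its highest and its lowest library. The log2 fold change was 0.07 (SE 0.13, adjusted p = 0.898 in edgeR), and its 95% interval ran from 0.876-fold to 1.26-fold. The gene has a processed pseudogene, *Gm4800*, with 90.9% identity over 1280 bases and overlaps *Sync* on the opposite strand, which held 15 counts over all libraries, so a part of its count is uncertain. *Rbbp7*, the relative that takes the same place in PRC2, had 699, 702 and 733 CPM in wild type and 674, 556 and 625 CPM in *Piezo1* cKO. Every *Piezo1* cKO library thus lay below every wild type library, as for 8.31% of all genes tested, but the difference did not pass the test (log2 fold change -0.20, SE 0.14, adjusted p = 0.588 in edgeR). *Rbbp4* was the 1 gene with a positive fold change among the 6 of the PRC2 core, whose median was -0.12, and 0 of the 6 were called or had an unadjusted p under 0.05 in edgeR.

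In PRC1, *Bmi1* (chr2:18677018-18686629, plus strand), which encodes a PCGF subunit needed to keep stem cells renewing, stood at 112, 106 and 93.2 CPM in wild type and at 93.9, 109 and 87.8 CPM in *Piezo1* cKO. The values of the groups were interleaved, and the log2 fold change was -0.10 (SE 0.17, 95% interval -0.43 to 0.24, adjusted p = 0.892 in edgeR). The *Bmi1* transcript has a copy, *Gm5946*, with 97.0% identity over 2658 bases, so its count is uncertain to the extent that reads of near-identical copies were shared or dropped. *Ring1* (chr17:34020792-34024680, minus strand), a ubiquitin ligase subunit, had 5, 14 and 7 counts in wild type and 8, 11 and 7 in *Piezo1* cKO. Both groups summed to 26 counts, and the ratio of the pooled rates was 1.06 with an exact Poisson 95% interval from 0.591 to 1.90, which covers counting error only. Library 2 held the highest *Ring1* value in each group, and a 1.5-fold difference in either direction lies within this interval. *Rnf2*, the other ligase, named after its values were seen, had 46.4 ± 1.40 CPM in wild type and 48.4 ± 8.79 CPM in *Piezo1* cKO (SD, n = 3; log2 fold change 0.06, adjusted p = 0.955 in edgeR).

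Among the genes of maintenance methylation, *Dnmt1* (chr9:20907209-20959888, minus strand) had 141, 170 and 181 CPM in wild type and 164, 129 and 128 CPM in *Piezo1* cKO. Wild type library 1 and *Piezo1* cKO library 1 crossed, while the other libraries separated by group. The means were 164 ± 20.2 and 140 ± 20.8 CPM (SD, n = 3), and the log2 fold change of -0.23 (SE 0.15, 95% interval -0.53 to 0.07) had the smallest adjusted p of the 9 genes, 0.574 in edgeR. *Uhrf1* (chr17:56303321-56323486, plus strand) varied more, with 143, 208 and 154 CPM in wild type and 191, 113 and 138 CPM in *Piezo1* cKO. Wild type library 2 was its highest and *Piezo1* cKO library 2 its lowest. The same libraries stood apart in differentiation markers, and the part of that in the *Uhrf1* values was not tested. Its log2 fold change was -0.19 (SE 0.16, 95% interval -0.53 to 0.14, adjusted p = 0.701 in edgeR), and with both libraries numbered 2 left out it was 0.15 (adjusted p = 0.910 in edgeR), so its sign rested on them. A processed pseudogene, *Gm5648*, is 98.3% identical over 1590 bases, and the *Uhrf1* count is uncertain in the same way as that of *Bmi1*. *Dnmt3a* (chr12:3806007-3914443, plus strand), the enzyme of new methylation, had 12, 23 and 11 counts in wild type and 20, 14 and 15 in *Piezo1* cKO. Its means were 18.2 ± 6.28 and 20.7 ± 3.53 CPM (SD, n = 3). The groups overlapped (log2 fold change 0.18, SE 0.33, adjusted p = 0.900 in edgeR). Its relative *Dnmt3b* was too low to test, with 0, 4 and 4 counts in wild type and 2, 2 and 6 in *Piezo1* cKO.

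**Figure D2:**
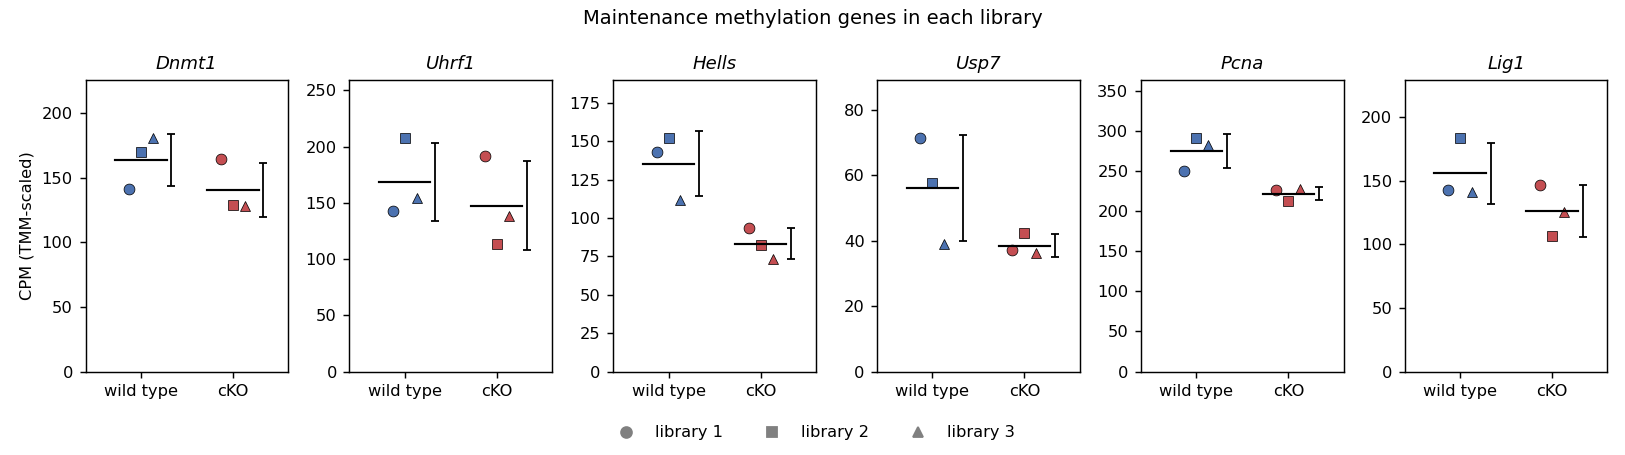
Level in TMM-scaled CPM (vertical axes, each starting at 0) of 6 genes of maintenance methylation in 3 wild type (blue) and 3 *Piezo1* cKO (red) libraries, with library number as symbol, group mean as a line and SD as a bar. *Hells* and *Pcna* do not overlap between the groups, whereas *Dnmt1*, *Uhrf1*, *Usp7* and *Lig1* do.

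Among the other genes of DNA methylation, *Hells* (chr19:38930915-38971051, plus strand), which encodes a chromatin remodeller that gives DNMT enzymes access to packed DNA, had 143, 152 and 112 CPM in wild type and 93.9, 82.4 and 73.6 CPM in *Piezo1* cKO. All *Piezo1* cKO libraries lay below all wild type libraries, and *Hells* fell by 0.70 on the log2 scale (SE 0.17, 95% interval -1.03 to -0.37, adjusted p = 0.0149 in edgeR), to 83.3 ± 10.2 from 136 ± 21.2 CPM (SD, n = 3). This call was lost in DESeq2 (log2 fold change -0.72, adjusted p = 0.129), with total counts as the only scaling (adjusted p = 0.0529 in edgeR) and with a replicate block (adjusted p = 0.0585 in edgeR). It was also lost without wild type library 2 (log2 fold change -0.59, adjusted p = 0.101 in edgeR), without *Piezo1* cKO library 2 (-0.69, adjusted p = 0.203 in edgeR), without *Piezo1* cKO library 3 (-0.62, adjusted p = 0.191 in edgeR) and with both libraries numbered 2 left out (-0.59, adjusted p = 0.221 in edgeR). The log2 fold change kept its sign and lay between -0.83 and -0.59 in every fit that left out 1 library.

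Of the 8 tested genes of methylation writing and maintenance, *Hells* was the 1 called, and 6 of the 8 had negative fold changes with a median of -0.27. Another 3 had an unadjusted p under 0.05 in edgeR but did not pass the adjustment. *Pcna*, the replication clamp that also holds DNMT1 at the fork, had 251, 291 and 283 CPM in wild type and 226, 212 and 227 CPM in *Piezo1* cKO (log2 fold change -0.31, SE 0.14, adjusted p = 0.32 in edgeR). *Usp7*, a deubiquitinase known to stabilise UHRF1 and DNMT1, had 56.0 ± 16.2 against 38.6 ± 3.42 CPM (SD, n = 3; log2 fold change -0.52, adjusted p = 0.355 in edgeR). *Lig1*, the ligase that joins Okazaki fragments and is bound by UHRF1, is named after its values were seen and had a log2 fold change of -0.31 (adjusted p = 0.419 in edgeR). Of this group *Pcna* alone joined *Hells* in not overlapping between the groups. Beside this, 0.316% of all genes tested were called lower, 5.78% were lower at an unadjusted p under 0.05, and 8.31% lay below without overlap. With both libraries numbered 2 left out, 6 of the 8 were negative and the median was -0.10. *Pcna* and *Lig1*, in which those libraries were the highest and the lowest, then had values of -0.24 and -0.061 (adjusted p = 0.764 and 0.965 in edgeR).

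The fixed lists of the rest of the pathway held 54 further genes, of which 33 were tested. Of these, 12 had positive and 21 negative fold changes with a median of -0.12, and *Hells* was the 1 gene called. Among the PRC2 accessory subunits, which steer the complex to its sites, 5 of 8 listed genes were tested and 0 were called or had an unadjusted p under 0.05 in edgeR. *Jarid2* had the highest log2 fold change of this list at 0.39 (adjusted p = 0.743 in edgeR), from 10.4 to 19.6 CPM in wild type and 15.4 to 20.7 CPM in *Piezo1* cKO. *Epop* had the lowest at -0.51 (adjusted p = 0.567 in edgeR), with 24.8 ± 0.781 against 17.3 ± 7.42 CPM (SD, n = 3), and *Aebp2* followed at -0.27 (adjusted p = 0.475 in edgeR). *Epop* did not overlap between the groups, and *Piezo1* cKO library 2, at 9.01 CPM, lay farthest below. With both libraries numbered 2 left out its log2 fold change was -0.23 (adjusted p = 0.943 in edgeR). *Aebp2*, highest in wild type library 2 and lowest in *Piezo1* cKO library 2, then turned to 0.016 (adjusted p = 0.989 in edgeR), and the median of the list went from -0.12 to -0.16.

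PRC1 had 14 of its 24 listed genes tested, 6 with positive and 8 with negative fold changes, a median of -0.05, and 0 called or with an unadjusted p under 0.05 in edgeR. *Pcgf3*, a core subunit of a variant PRC1, was the 1 tested gene without overlap, at 102, 100 and 97.8 CPM in wild type and 125, 115 and 123 CPM in *Piezo1* cKO (log2 fold change 0.27, adjusted p = 0.512 in edgeR). Of the chromodomain readers, *Cbx6* had the highest log2 fold change of the list at 0.44 (adjusted p = 0.589 in edgeR). The lowest values were those of *Pcgf5* at -0.48 (adjusted p = 0.516 in edgeR) and *Phc1* at -0.44 (adjusted p = 0.664 in edgeR). Enzymes that remove the Polycomb marks were represented by 4 tested genes of 6 with a median of 0.02 and 0 called or with an unadjusted p under 0.05 in edgeR. They included the histone demethylase gene *Kdm6a* (log2 fold change -0.28, adjusted p = 0.789 in edgeR), the deubiquitinase gene *Bap1* (0.06, adjusted p = 0.936 in edgeR). The genes of its cofactors, *Asxl1* and *Asxl2*, had values of -0.01 and 0.09. The list of DNA methylation erasers, readers and related MBD family genes had 5 of 10 genes tested. Log2 fold changes were -0.22 for *Mbd3*, -0.19 for *Mbd1* and 0.02 for *Tdg*. The median was -0.17, and 0 were called or had an unadjusted p under 0.05 in edgeR. *Mbd3*, also with the libraries numbered 2 at its ends, had -0.071 without them (adjusted p = 0.951 in edgeR), and the median of the list was -0.23. The TET demethylases were too low to test, with 0 to 3 counts per library for *Tet1*, 3 to 14 for *Tet2* and 7 to 15 for *Tet3*, genes named after their values were seen.

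**Figure D3:**
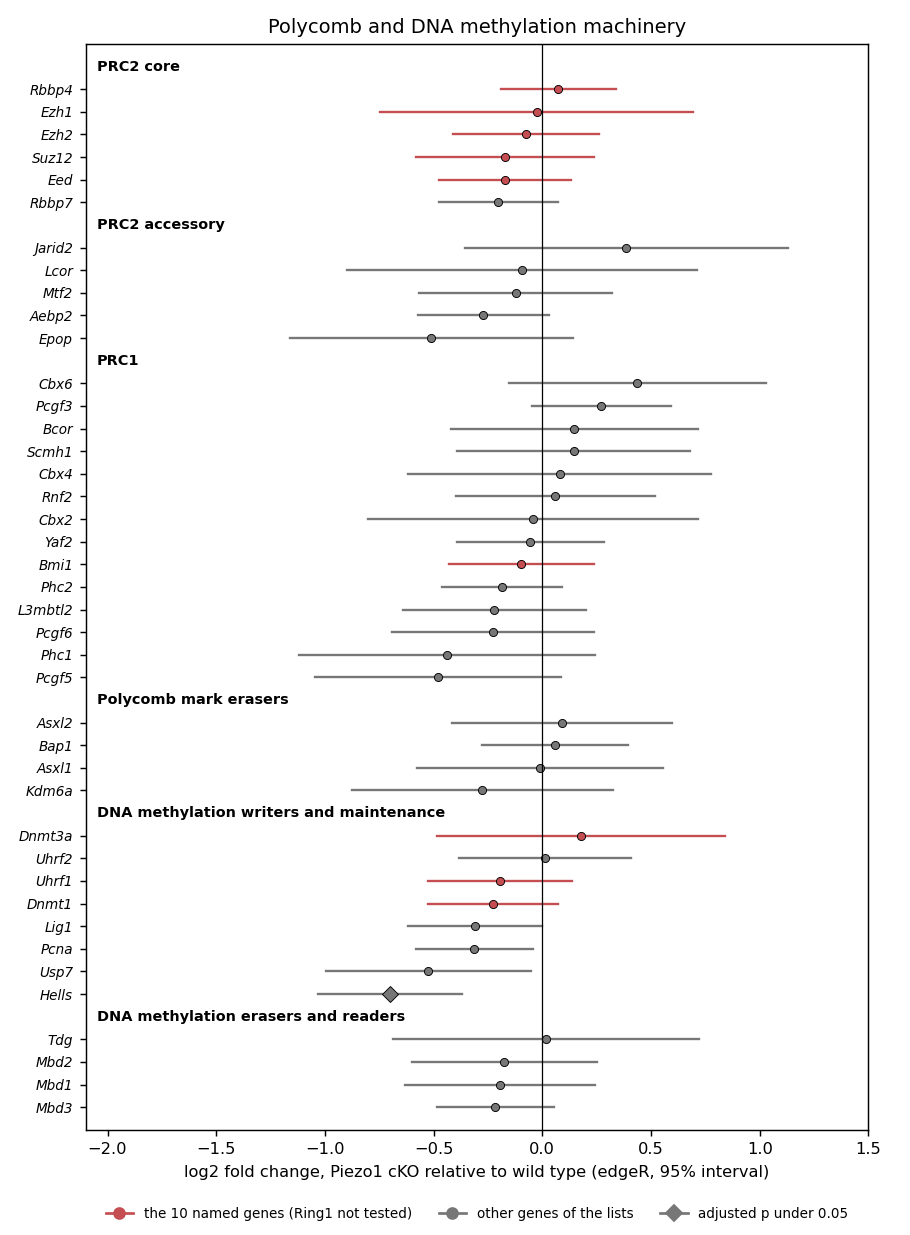
Log2 fold change in *Piezo1* cKO relative to wild type (horizontal axis) with its 95% interval from edgeR for tested genes of 6 lists of Polycomb and DNA methylation genes, with the 10 chosen genes in red (*Ring1* was not tested) and a diamond where the adjusted p was under 0.05. *Hells*, at -0.70, is the only diamond, and the intervals of all red points cross 0.

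Since DNMT1 and UHRF1 work at the replication fork, the genes of S phase were described from a list of 36, of which 33 were tested. Fold changes were negative for 31 of the 33 with a median of -0.26, and 11 had an unadjusted p under 0.05, all of them lower, beside 5.78% of all genes tested. No gene of the list was called (lowest adjusted p = 0.0569 in edgeR, for *Cdc6*). In 10 of the 33 genes every *Piezo1* cKO library lay below every wild type library, against 8.31% of all genes tested. *Cdc6*, which loads the replicative helicase, had 57.4, 101 and 55.2 CPM in wild type and 51.9, 29.6 and 34.9 CPM in *Piezo1* cKO (log2 fold change -0.89, SE 0.24). The other genes of the list without overlap and with the smallest p included the helicase subunit *Mcm5* (log2 fold change -0.44, adjusted p = 0.137 in edgeR), the primase subunit *Prim1* (-0.55, adjusted p = 0.141 in edgeR), the nucleotide synthesis gene *Tk1* (-0.52, adjusted p = 0.118 in edgeR) and the clamp loader gene *Rfc5* (-0.39, adjusted p = 0.259 in edgeR). *Pola1* had a value of -0.88 (adjusted p = 0.23 in edgeR) with overlapping groups, and the positive values were those of *Pole* at 0.44 (adjusted p = 0.509 in edgeR) and *Chaf1b* at 0.05.

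Here too the libraries numbered 2 stood apart. Wild type library 2 was the highest of the 6 for 23 of the 33 S phase genes, and *Piezo1* cKO library 2 the lowest for 20. With both left out, 24 of the 33 genes kept a negative fold change and the median moved from -0.26 to -0.13. *Cdc6* then had a log2 fold change of -0.37 (adjusted p = 0.816 in edgeR), *Mcm5* -0.24 (0.775), *Prim1* -0.41 (0.676) and *Rfc5* -0.27 (0.794), all smaller than with the 6 libraries. *Tk1* had -0.41 (0.587), also smaller, whereas *Pola1* had -0.96 (0.346), which was larger. In this comparison 12 of the 33 genes lay below without overlap and 1 above, beside 18.4% and 18.6% of all genes tested. Over the tested Polycomb and methylation genes wild type library 2 was the highest for 4 of 9, and *Piezo1* cKO library 2 the lowest for 1. In bulk RNA, fewer cycling cells and less RNA of these genes per cell cannot be told apart.

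Mitotic genes were described in the same way, and 21 of 24 had negative fold changes with a median of -0.20. Of the 24 genes 7 had an unadjusted p under 0.05 in edgeR, all lower, and 6 lay below without overlap. Among all genes tested these shares were 5.78% and 8.31%, and 0.316% were called lower. With both libraries numbered 2 left out, 16 of the 24 were negative and the median was -0.06. *Prc1*, a microtubule bundler of the spindle midzone that is unrelated to the Polycomb complex of that name, fell from 43.7 ± 7.04 to 18.6 ± 3.40 CPM (SD, n = 3; log2 fold change -1.21, SE 0.28, adjusted p = 0.0115 in edgeR). *Cenpf*, a kinetochore gene, fell from 135 ± 4.82 to 87.1 ± 10.2 CPM (SD, n = 3; log2 fold change -0.63, SE 0.16, adjusted p = 0.0293 in edgeR). These were the only calls of this list in edgeR. DESeq2 gave *Cenpf* an adjusted p of 0.178 and *Prc1* none. Both calls were lost with both libraries numbered 2 left out (log2 fold changes -1.25 and -0.63, adjusted p = 0.0504 for *Prc1* and 0.147 for *Cenpf* in edgeR), while their fold changes stayed about as large. They were also lost without wild type library 1, *Piezo1* cKO library 2 or *Piezo1* cKO library 3 (0.0563, 0.179 and 0.108 for *Prc1*, and 0.0532, 0.210 and 0.277 for *Cenpf* in edgeR). *Cenpf* was lost too without wild type library 2 (0.0689 in edgeR), with a replicate block (0.101 in edgeR), with total counts only (0.0800 in edgeR) and with cyclic loess (0.0605 in limma). Another 4 genes named by the absence of overlap were *Cdk1* (-0.40, adjusted p = 0.159 in edgeR), *Cenpe* (-0.54, adjusted p = 0.167 in edgeR), *Cenpa* (-0.34, adjusted p = 0.253 in edgeR) and *Hmmr* (-0.24, adjusted p = 0.573 in edgeR), and the highest values were those of *Bub1b* at 0.06 and *Kif23* at 0.03.

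**Figure D4:**
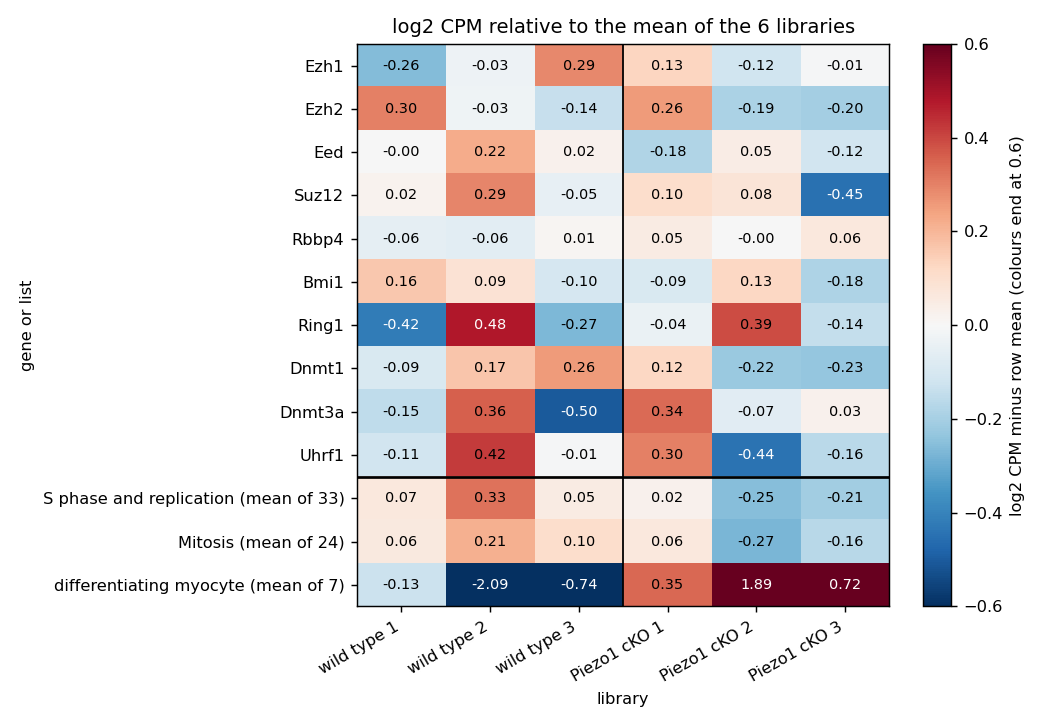
Log2 CPM of each of the 10 genes, and mean over the tested genes of 3 lists, relative to the mean of the 6 libraries (columns, 3 wild type left of the line and 3 *Piezo1* cKO right of it), as printed in each cell, with colours ending at 0.6 either way. *Uhrf1* runs from 0.42 in wild type 2 to -0.44 in *Piezo1* cKO 2 and the S phase mean from 0.33 to -0.25, the myocyte mean runs from -2.09 to 1.89, and *Rbbp4* runs only from -0.06 to 0.06. The myocyte mean includes *Actc1*, which passed the filter on low counts through *Piezo1* cKO alone.

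The genes of these lists whose pattern over the 6 libraries lay nearest to each Polycomb or methylation gene were found by the root mean square difference of log2 CPM centred on the gene's mean, among 94 genes. *Uhrf1* lay nearest to the helicase subunit *Mcm7* (0.06, where the median over the 94 genes was 0.27), and *Dnmt1* to the clamp loader gene *Rfc2* (0.08, median 0.23). *Eed* and *Rbbp4* both lay nearest to the thymidylate synthase gene *Tyms* (0.09 and 0.10), *Ezh2* to the chromosomal passenger gene *Birc5* (0.11) and *Bmi1* to the histone mRNA binding gene *Slbp* (0.11). *Rbbp4* itself ran only from -0.06 to 0.06 around its mean, less than its distance to *Tyms*. The log2 fold changes of *Rbbp4* and *Tyms* had opposite signs (0.07 and -0.09), so their match is not a shared pattern. *Suz12* was nearest to the PRC1 gene *Pcgf6* (0.08), *Ezh1* to the PRC1 gene *Scmh1* (0.11), and *Dnmt3a* to the DNA polymerase gene *Pole* (0.13). With both libraries numbered 2 left out, the difference between *Uhrf1* and *Mcm7* was 0.08, and both then had positive log2 fold changes (0.15 and 0.079). All points share the same 6 libraries and their scaling, so this likeness is a description of these libraries.

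Promoters of the 10 genes were read for the letters of the E2F site, through which S phase genes are known to be switched on. Sequences from 250 bases before to 50 after each annotated start were taken from RefSeq (GRCm38.p6), where all 10 genes were found with 15 windows. The search took TTTCCCG (as in *Suz12*), TTTCGCG (as in *Uhrf1*), TTTGGCG (as in *Ezh2*) and the related form TTTGCCG, on either strand. At least 1 of them was present in 4 of the 10 genes (40.0%: *Ezh2*, *Dnmt1*, *Suz12* and *Uhrf1*), in 13 of 29 S phase genes (44.8%) and in 14.0% of the 6706 tested genes with a promoter in the table. Of the genes with the letters, *Uhrf1* and *Dnmt1* lay nearest to S phase genes above, and *Ezh2* and *Suz12* to genes of other lists. *Eed*, *Rbbp4*, *Bmi1* and *Dnmt3a*, which held none, also lay nearest to S phase genes. The 94 genes compared there included the 33 tested S phase genes. Any link between the letters and the nearest genes was not tested. Since some genes have several windows, the shares per window were 26.7%, 39.4% and 11.8%. The letters TTTGAA of the CHR element, known from mitotic promoters, were present in 30.0% of the 10 genes, in 76.2% of the mitotic genes and in 14.0% of the tested genes. The letters CCAAT were present in 60.0%, 85.7% and 43.1% of them. The stretches below show the E2F letters upstream of a start, with the matched letters in capitals. They come from *Suz12* (chr11:79992860-79992919, plus strand, outside annotated genes), *Uhrf1* (chr17:56304101-56304160, plus strand, in an intron of the gene upstream of an internal start), *Dnmt1* (chr9:20952824-20952853, minus strand, upstream of an internal start) and, for comparison, *Hells* (chr19:38930919-38930948, plus strand), where matches on the opposite strands overlap. The *Dnmt1* and *Hells* stretches overlap annotated exons of these genes. In *Ezh2* the letters lie just after the start. A match of letters is not a bound site.
*Suz12*: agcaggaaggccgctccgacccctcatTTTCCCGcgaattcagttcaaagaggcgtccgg
*Uhrf1*: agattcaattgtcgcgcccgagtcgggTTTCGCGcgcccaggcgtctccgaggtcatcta
*Dnmt1*: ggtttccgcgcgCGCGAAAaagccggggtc
*Hells*: ccaccgggtTTTCCCGCGAAAgagaagcgc

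Genes of muscle cells that are described as targets of Polycomb or DNA methylation were followed with a list of 16, of which 6 were tested. Beside muscle genes held silent in proliferating cells, the list holds *Pax7*, *Cdkn1a* and *Cdkn1c*. *Tnni2*, a troponin subunit of fast muscle, rose from 8.40, 2.17 and 4.60 CPM in wild type to 19.8, 30.9 and 15.5 CPM in *Piezo1* cKO (log2 fold change 2.16, SE 0.45, adjusted p = 0.00459 in edgeR), and was the 1 gene called. With only 6, 2 and 4 counts in wild type it passed the filter on low counts through *Piezo1* cKO alone, so it had to differ, and neither its call nor its size is support for a change of the list. With at least 10 counts required in every library it was not tested. Its call was lost without *Piezo1* cKO library 2 (log2 fold change 1.84, adjusted p = 0.277 in edgeR) and with both libraries numbered 2 left out (1.46, adjusted p = 0.346 in edgeR). *Myog* had 56.0, 3.26 and 51.8 CPM in wild type and 77.8, 261 and 119 CPM in *Piezo1* cKO, with no overlap. *Acta1*, the skeletal actin, had 64.4, 61.9 and 92.0 against 164, 454 and 265 CPM. *Acta1* did not overlap either, but neither gene passed the test (log2 fold changes 2.09 and 2.01, adjusted p = 0.469 and 0.241 in edgeR). Both were called with both libraries numbered 2 left out, at smaller log2 fold changes of 0.87 and 1.43 (adjusted p = 0.0324 and 8.32e-11 in edgeR). These p-values come from 2 libraries against 2, chosen after the data were seen and without the most deviant ones. They are thus no measure of the spread over all replicates. *Pax7*, which is silenced as MuSCs differentiate, had a log2 fold change of -0.64 (adjusted p = 0.482 in edgeR), and the cell cycle inhibitor genes *Cdkn1a* and *Cdkn1c* had -0.13 and 0.25 (adjusted p = 0.775 and 0.872 in edgeR). With both libraries numbered 2 left out *Pax7* had -0.047 and *Cdkn1c* turned to -0.43 (adjusted p = 0.989 and 0.912 in edgeR). The embryonic myosin gene *Myh3* was below the filter with 1, 0 and 0 counts in wild type and 9, 35 and 4 in *Piezo1* cKO. The summed level of the list was 947, 751 and 1016 CPM in wild type and 1072, 1441 and 1151 CPM in *Piezo1* cKO, with *Cdkn1a* as its most abundant gene. Of the 5 tested genes other than *Tnni2*, 0 were called, 1 had an unadjusted p under 0.05 in edgeR and 2 lay above without overlap (6.14% and 8.2% of all genes tested did so). Their median log2 fold change was 0.25, and -0.047 with both libraries numbered 2 left out. These medians are the values of *Cdkn1c* and of *Pax7*, and *Myog* and *Acta1* lay above them in both fits. They thus do not describe the silenced muscle genes of the list.

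**Figure D5:**
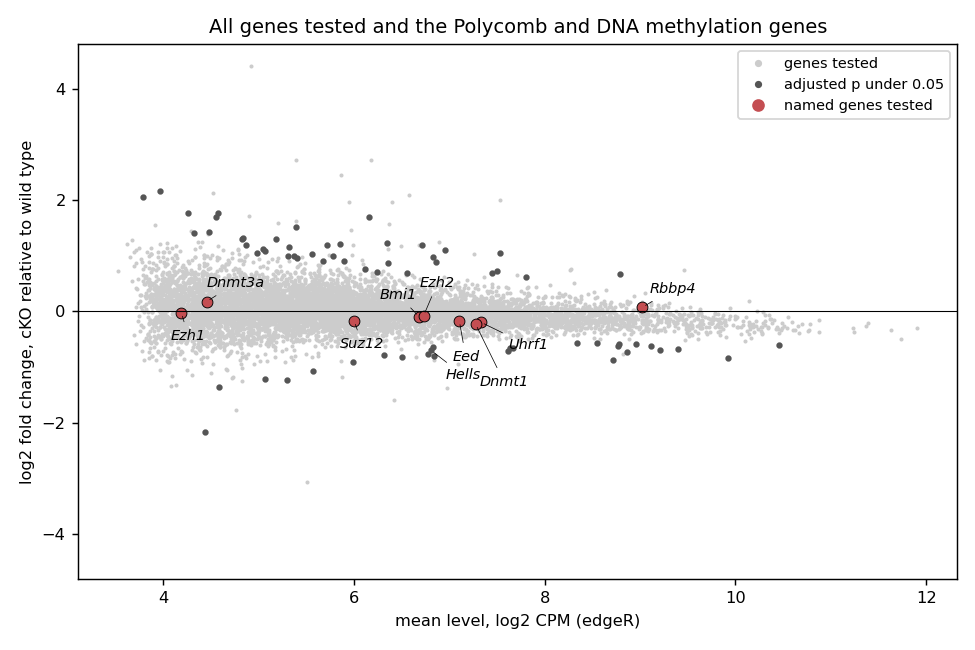
Log2 fold change in *Piezo1* cKO relative to wild type (vertical axis) against mean log2 CPM from edgeR (horizontal axis) for the 8551 genes tested in grey, the 67 with an adjusted p under 0.05 in black, and the 9 tested Polycomb and methylation genes in red, with *Hells* labelled among the black points. The red points lie between -0.23 and 0.18.

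Markers of the cell types that a sort could hold were checked in the same libraries. *Myod1*, the myoblast determination factor, was present at 1421 ± 99.5 CPM in wild type and 1276 ± 199 CPM in *Piezo1* cKO (SD, n = 3; log2 fold change -0.15, adjusted p = 0.743 in edgeR). Immune markers were low, with 3 of the 8 listed genes in the table and *Cd68* as the most abundant at 5 to 13 counts per library (up to 14.2 CPM). *Lyz2*, a macrophage lysozyme, had 11 counts in wild type library 2, 1 in *Piezo1* cKO library 1 and 0 in the others. The summed immune list was 9.80, 27.2 and 12.7 CPM in wild type and 9.88, 14.2 and 10.3 CPM in *Piezo1* cKO, so wild type library 2 stood highest. No endothelial gene and no gene of Schwann and smooth muscle cells reached the filter, and *Flt1* and *Pi16* were at 0 in all libraries. Of the fibroblast list 2 of 10 genes were tested. *Dcn*, an extracellular matrix proteoglycan, fell from 25.2, 25.0 and 42.6 CPM to 9.88, 6.43 and 3.87 CPM (log2 fold change -2.17, SE 0.38, adjusted p = 0.000391 in edgeR). With 8, 5 and 3 counts in *Piezo1* cKO it passed the filter on low counts through wild type alone, so it had to differ. *Col3a1*, the most abundant gene of that list, had a log2 fold change of 0.41 (adjusted p = 0.266 in edgeR). *Ly6a* encodes Sca1, a marker excluded by the sort, and was below the filter. It had 2, 2 and 3 counts in wild type and 5, 8 and 9 in *Piezo1* cKO. *Rgs5* of the smooth muscle list had 0, 0 and 1 against 2, 4 and 6 counts, and *Csf1r* of the immune list 2, 1 and 1 against 0, 0 and 0. These low genes were named after their values were seen. The summed fibroblast list was 251 ± 88.7 against 288 ± 20.6 CPM (SD, n = 3) and overlapped between the groups. The part of these cells in the results above was not tested.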

How the data were processed

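RNA from cultured MuSCs was sequenced in 6 libraries. The authors reverse transcribed total RNA with barcoded oligo-dT primers, aligned reads to GRCm38 with STAR 2.7.9a, counted them by gene with featureCounts 2.0.1 and removed PCR duplicates with UMI-tools 1.1.1 (versions from the submitters' processing notes). The deposited values are whole-number counts of molecules per gene, not normalised. The settings for strand and for reads mapping to several places are not given in the sources used here, nor is it said which mouse gave which library, though the paper's description of this experiment gives N = 3. The edgeR p-values set the difference between the groups against the spread between these libraries. Whether that is a spread between mice is not known. The table held no other per-sample column.

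Counts were tested in R 4.3.3 with edgeR 4.0.16 (filter at a minimum count of 10, 8551 genes, TMM, robust quasi-likelihood fit without a block, Benjamini-Hochberg over all genes, called at an adjusted p under 0.05). Log2 CPM used a prior count of 2. *Ring1* and *Piezo1* were fitted past the filter. Single values were compared by exact permutation tests. The Poisson interval and the floors cover counting error only, whereas the edgeR intervals also hold the spread between libraries. Replicates differed from each other by more than sampling noise (chi-square per degree of freedom 1.64 to 2.61), so none was a duplicate. Alternatives were DESeq2 1.42.0, limma-voom (limma 3.58.1), DESeq2 size factors, total counts only, cyclic loess with 3 iterations, a fit with a replicate block, no filter (19247 genes), a filter at 10 counts in all libraries (7510 genes), libraries thinned to equal totals, a threshold of 0.1 and each library left out in turn. Their application to the lists, the called genes of the lists and *Piezo1*, and leaving out both libraries numbered 2 for these, the lists and their genes, and setting aside genes that passed the filter through 1 group alone, were chosen after seeing the data. The code was tested on simulated counts.

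The 10 genes and all lists were chosen with earlier results of these data known. The genes named are the 10, *Piezo1*, and from each pathway list those called, up to 2 with the largest rise and fall, and up to 6 without overlap and with the smallest p, plus the nearest gene of each of the 10. Others are marked as named after their values were seen. Values of a few single genes that the rule would name are not reported here, but they remain in the counts and medians of their lists. Gene positions and copies (at least 90% identity over 200 bases) come from GENCODE M21, and promoters from RefSeq.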

Additional observations from a re-analysis of the deposited data

How the results depend on the processing

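No alternative called any of the 10 genes, and the lowest adjusted p was 0.205 (*Uhrf1* without *Piezo1* cKO library 1, edgeR). An unadjusted p under 0.05 was reached by 2 of them without *Piezo1* cKO library 1 (edgeR) and by 1 with cyclic loess (limma). Of 156 values of these genes under alternatives, 144 kept their direction and 12 reversed. *Ezh1* turned to 0.043 with total counts only, 0.017 after thinning and 0.0033 with both libraries numbered 2 left out, which also turned *Uhrf1* to 0.15 and *Piezo1* to -0.093. Leaving out 1 library gave -0.14 to 0.15 for *Ezh1*, -0.24 to 0.059 for *Ezh2*, -0.13 to 0.54 for *Ring1* and -0.040 to 0.51 for *Dnmt3a*. The others kept their sign, at -0.42 to -0.0037 for *Uhrf1*, -0.26 to -0.013 for *Suz12*, -0.19 to -0.034 for *Bmi1*, -0.35 to -0.16 for *Dnmt1*, -0.24 to -0.089 for *Eed* and 0.055 to 0.094 for *Rbbp4*, as did *Piezo1* at 0.14 to 0.93. The cause was not tested.

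The count of all genes called, 67, was 27 in DESeq2, 32 with cyclic loess, 129 with no filter, 124 at an adjusted p under 0.1, and 6 (without *Piezo1* cKO library 2) to 155 (without *Piezo1* cKO library 1) with 1 library left out. The share called higher, 59.7%, was 44.4% in DESeq2 (12 higher and 15 lower), 71.4% with total counts only and 46.8% with both libraries numbered 2 left out. Calls of methylation writers fell from 1 to 0 in DESeq2, with total counts only and with both libraries numbered 2 left out (0 to 1 with 1 library left out). Mitotic calls went from 2 to 0 in DESeq2 (which gave *Prc1* no adjusted p) and with both libraries numbered 2 left out, and to 1 with total counts only and cyclic loess (0 to 2 with 1 library left out). S phase calls went from 0 to 1 with DESeq2 size factors, no filter, at least 10 counts in every library and an adjusted p under 0.1 (0 to 2 with 1 library left out). Calls of muscle genes went from 1 to 3 with limma-voom and no filter, 0 at 10 counts in every library, and 2 with both libraries numbered 2 left out (1 to 2 with 1 library left out).

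Same-numbered libraries deviated with correlations of -0.143, -0.203 and 0.0121, which show no pairing by number. They cannot exclude one, since the libraries numbered 2 lay at opposite ends in the differentiation markers. What the numbers stand for is not given in the sources used here. Under the replicate block 46 genes were called, with 0 methylation writers, 1 mitotic gene and 2 muscle genes. *Ezh1*, *Ring1* and *Dnmt3a* had at most 50 counts per group, which limits what their tests can show.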

Other observations

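Within a library, the number of *Rbbp4* counts per *Rbbp7* count was 0.713, 0.706 and 0.713 in wild type and 0.795, 0.931 and 0.868 in *Piezo1* cKO. These genes encode interchangeable histone chaperones of PRC2 and other complexes. The ratio did not overlap between the groups and averaged 0.711 ± 0.00417 against 0.864 ± 0.0679 (SD, n = 3; exact permutation, two-sided p = 0.1, which is the lowest possible with 3 against 3, and adjusted p = 0.4 over 6 ratios chosen after their values were seen). The counts of *Hells* per count of *Uhrf1*, 0.819 ± 0.157 against 0.583 ± 0.126, and per count of *Dnmt1*, 0.842 ± 0.202 against 0.596 ± 0.0384 (SD, n = 3), overlapped between the groups (two-sided exact permutation tests, p = 0.2 for each, adjusted p = 0.4). *Uhrf1* per *Dnmt1* was 1.03 ± 0.186 against 1.04 ± 0.147, and *Bmi1* per *Rnf2* 2.24 ± 0.143 against 2.04 ± 0.397 (two-sided exact permutation tests, p = 0.9 and 0.6).

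Of the 10 markers of muscle stem cells and myoblasts, 9 were tested and 0 were called, with 3 at an unadjusted p under 0.05 in edgeR. These 3, named after their values were seen, did not overlap between the groups. Of all genes tested, 16.5% did not overlap and 11.9% reached that p. *Cdh15*, which encodes M-cadherin, had 102 ± 30.0 against 148 ± 12.0 CPM (SD, n = 3; log2 fold change 0.53, adjusted p = 0.118 in edgeR). *Vcam1*, a gene of the sort, had 136 ± 14.2 against 99.7 ± 15.1 CPM (log2 fold change -0.45, adjusted p = 0.185 in edgeR), and *Sdc4*, a syndecan of satellite cells, 248 ± 51.9 against 171 ± 31.2 CPM (log2 fold change -0.53, adjusted p = 0.0617 in edgeR). Of the 7 tested markers of differentiating myocytes, *Actc1*, a cardiac actin, had 6, 0 and 0 counts in wild type and 11, 96 and 21 in *Piezo1* cKO. It passed the filter on low counts through *Piezo1* cKO alone, so its sign was fixed. The other 6 had positive fold changes with a median of 1.99. None of them was called in edgeR, 3 had an unadjusted p under 0.05, and 5 lay above without overlap, beside 6.14% and 8.2% of all genes tested. The list means of the libraries numbered 2, -2.09 and 1.89 relative to the average library, still include *Actc1*. In each of the other 6 genes these libraries lay at the ends as well. With both left out, 5 of the 6 were positive, the median was 0.96 and 3 were called in edgeR, beside 47 of the 8598 genes tested in that fit.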
